A study of Mus musculus with 10 samples.

Results

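The Gm-numbered predicted genes detected in mouse oocytes were described here as a group. These are mouse loci to which the array annotation gives a provisional symbol, Gm followed by a number. Such symbols are used for loci found by computer prediction in the genome sequence, and some of these loci have since been renamed. Members were the array transcript clusters annotated to 1 such symbol alone and whose mean log2 level over all 10 arrays was at least 6. That rule kept 2304 of 7765 Gm clusters (29.7%), which carried 2288 symbols, and the 5461 clusters below the limit are not described. The array held 65956 clusters in all, and 9087 clusters of other single named genes passed the same level limit. The level limit used values from all 4 groups together, so the levels themselves are given as a description. The lowest members were Gm3675 (6.002), Gm22061 (6.002) and Gm22286 (6.002), and the nearest clusters outside the limit were Gm3687 (5.999), Gm26760 (5.998) and Gm5393 (5.995).

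Oocytes came from WT and Patl2-/- mice at the germinal vesicle stage (GV, arrested before the first meiotic division) and at metaphase II (MII, the mature egg). There were 2 arrays of WT GV, 3 of Patl2-/- GV, 2 of WT MII and 3 of Patl2-/- MII oocytes, each from a separate pool that the labels call a biological replicate. All females received 5 UI of PMSG. GV oocytes were collected 44 hours later in pools of 20 to 32 cells, and MII oocytes 12 hours after 5 UI of hCG, itself given 48 hours after PMSG, in pools of 28 to 46 cells. Follicular cells were removed from all pools by enzyme and pipetting. The Patl2-/- allele was made by crossing mice with a floxed Patl2 (C57BL/6NTac) to mice with the EIIa-Cre transgene, which is active in the early embryo, so that the gene was disrupted in every tissue and not in the oocyte alone. Patl2 encodes an RNA-binding protein of the growing oocyte. Its cluster read 11.70 and 10.92 in WT GV, 7.71, 7.36 and 8.07 in Patl2-/- GV, 8.73 and 8.55 in WT MII and 6.44, 6.10 and 6.59 in Patl2-/- MII. The Patl2-/- arrays were lower at both stages, with a log2 difference of -3.60 ± 0.27 (SE) at GV (adjusted p = 0.0126) and of -2.26 ± 0.27 at MII (adjusted p = 0.0208).

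All 14 oocyte markers listed were at 6 or above, with array means from 13.5 to 14.2. At MII 1 of them was called (Zp3, a gene of the egg coat, 0.53 higher in Patl2-/-, adjusted p = 0.0488), and for 6 of the 14 all Patl2-/- arrays lay above both WT arrays (array means 13.7 to 13.8 against 13.5). Of 15 measured granulosa and cumulus markers 5 reached 6, and none of the 15 was called between genotypes. Their mean level was 5.36 to 5.47 in WT MII arrays and 5.57 to 6.21 in Patl2-/- MII arrays. All 3 Patl2-/- MII arrays lay above both WT arrays for 5 of the 15. For comparison, the genotypes did not overlap at MII, in either direction, in 28% of all clusters and 48.4% of other named clusters. Of 8 measured markers of theca, stroma, vessel and blood cells 2 reached 6, and none was called. The part of these cells in the member differences at MII was not tested. Negative control probe sets had a 90th percentile of 6.14 to 6.46 on the 10 arrays, so a level near 6 was close to background. Arrays of 1 group correlated at r = 0.984 to 0.993 over the members.

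Most Gm symbols are attached to pseudogenes, copies of a gene that arose by duplication or by reverse transcription of its mRNA and that often no longer encode a protein. A probe for a young copy can also hybridise with RNA of the parent gene, since their sequences are nearly the same. Fully grown oocytes make almost no new RNA. They live on stored transcripts, many of which are degraded or adenylated during meiotic maturation. Small nuclear RNAs (snRNAs) serve in splicing, and small nucleolar RNAs (snoRNAs) guide chemical modification of ribosomal RNA and often lie in introns of other genes.

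By RefSeq type, 1717 members were pseudogenes (74.5%), 92 of them transcribed, 243 were small RNAs (10.5%), 195 were long non-coding RNAs (8.46%) and 149 were protein-coding genes (6.47%). The small RNA class was formed here from every remaining RefSeq type. It comprised 160 snRNAs, 69 snoRNAs, 9 miscellaneous RNAs, whose size the type does not give, 4 guide RNAs and 1 rRNA. Pseudogene members had the highest median level, 9.05, followed by protein-coding genes (8.26), long non-coding RNAs (7.37) and small RNAs (6.51). The median of all members was 8.39, against 8.53 for the other named clusters. Not all members were separate measurements: 126 had exactly the values of another member, in 29 groups, the largest of which was 47 small RNAs on 18 chromosomes. In addition, 855 members (37.1%) overlapped another RefSeq gene, whose RNA the probes may have read as well. All 2304 members matched a RefSeq gene, 107 of them under a newer name, which is given beside the symbol where the member is described.

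A promoter window was at hand for 284 members (281 genes). Promoter windows ran from 250 bases before to 50 bases after the annotated start (RefSeq, GRCm38.p6). By shared 12-base words, 55 of these genes fell into 14 families with near-identical windows. Windows are shown for 2 families chosen after their values were seen, and for the long non-coding RNAs Gm15496 and Gm33489. In the first family 2 of 3 genes were called higher in Patl2-/- MII oocytes, where 0.367% of all clusters were. Members of the second read lower in Patl2-/- GV oocytes without passing the test. Whether the windows bear on the levels was not tested. The first family, on chromosome 4, is shown by Gm11757 (chr4:73891031-73891330, minus strand), Gm11756 (chr4:73920667-73920966, minus strand) and Gm11487 (chr4:73405023-73405322, minus strand). Capitals mark motif matches in Gm11757 and, in the other two, bases that differ from Gm11757 where the windows align.
Gm11757: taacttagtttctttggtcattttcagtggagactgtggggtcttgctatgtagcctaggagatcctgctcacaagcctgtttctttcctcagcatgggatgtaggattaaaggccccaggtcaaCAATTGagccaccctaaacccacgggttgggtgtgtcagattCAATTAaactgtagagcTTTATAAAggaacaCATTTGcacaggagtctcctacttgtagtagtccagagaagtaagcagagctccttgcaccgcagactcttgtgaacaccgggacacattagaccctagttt
Gm11756: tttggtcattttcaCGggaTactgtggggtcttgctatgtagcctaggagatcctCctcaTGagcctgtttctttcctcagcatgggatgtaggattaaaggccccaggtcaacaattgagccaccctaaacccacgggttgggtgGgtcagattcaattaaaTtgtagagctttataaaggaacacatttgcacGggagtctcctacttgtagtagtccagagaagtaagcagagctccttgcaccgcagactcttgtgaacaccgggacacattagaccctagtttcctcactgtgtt
Gm11487: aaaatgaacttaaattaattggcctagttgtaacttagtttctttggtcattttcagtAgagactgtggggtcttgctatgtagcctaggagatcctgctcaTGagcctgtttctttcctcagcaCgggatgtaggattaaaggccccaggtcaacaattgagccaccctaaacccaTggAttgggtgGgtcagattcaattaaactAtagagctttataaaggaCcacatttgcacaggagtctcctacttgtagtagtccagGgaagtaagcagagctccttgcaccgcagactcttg
Over 288 aligned bases Gm11756 had 9 differences from Gm11757 (96.9% identity), and over 270 aligned bases Gm11487 had 10 (96.3%).

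The second family, on the X chromosome, is shown by Gm5169 (chrX:25301406-25301705, minus strand) and Gm14525 (chrX:26702589-26702888, minus strand), which differed at 2 of 300 bases (99.3% identity). Capitals in Gm14525 mark those differences.
Gm5169: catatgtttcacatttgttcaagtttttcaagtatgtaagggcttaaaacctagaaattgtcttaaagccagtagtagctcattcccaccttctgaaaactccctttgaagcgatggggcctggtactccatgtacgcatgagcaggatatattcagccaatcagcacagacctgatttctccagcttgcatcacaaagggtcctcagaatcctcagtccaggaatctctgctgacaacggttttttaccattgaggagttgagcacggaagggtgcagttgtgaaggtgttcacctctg
Gm14525: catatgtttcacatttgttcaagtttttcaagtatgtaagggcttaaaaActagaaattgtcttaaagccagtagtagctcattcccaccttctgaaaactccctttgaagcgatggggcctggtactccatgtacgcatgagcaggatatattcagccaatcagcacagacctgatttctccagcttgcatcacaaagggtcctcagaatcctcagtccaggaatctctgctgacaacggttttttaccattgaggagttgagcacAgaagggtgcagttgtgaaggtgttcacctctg
Gm15496 has an annotated start at chr3:31301275-31301574 and another at chr3:31310228-31310527, both on the plus strand, and Gm33489 is shown at its starts chr13:44045070-44045369 and chr13:44022713-44023012 on the minus strand. A further annotated start of Gm33489 at chr13:44022707-44023006 overlaps the latter and is not shown. Capitals mark motif matches.
Gm15496 first start: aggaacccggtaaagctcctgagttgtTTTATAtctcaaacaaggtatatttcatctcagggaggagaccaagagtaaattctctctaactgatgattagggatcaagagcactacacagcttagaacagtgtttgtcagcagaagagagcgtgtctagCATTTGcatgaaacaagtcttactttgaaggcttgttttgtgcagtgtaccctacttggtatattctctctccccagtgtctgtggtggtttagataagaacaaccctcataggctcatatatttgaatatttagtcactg
Gm15496 other start: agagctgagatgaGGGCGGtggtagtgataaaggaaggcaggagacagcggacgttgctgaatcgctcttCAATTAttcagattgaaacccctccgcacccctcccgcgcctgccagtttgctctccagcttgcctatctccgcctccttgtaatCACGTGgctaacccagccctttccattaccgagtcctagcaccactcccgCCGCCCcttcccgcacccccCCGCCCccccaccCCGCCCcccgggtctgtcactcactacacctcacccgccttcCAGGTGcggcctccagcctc
Gm33489 first start: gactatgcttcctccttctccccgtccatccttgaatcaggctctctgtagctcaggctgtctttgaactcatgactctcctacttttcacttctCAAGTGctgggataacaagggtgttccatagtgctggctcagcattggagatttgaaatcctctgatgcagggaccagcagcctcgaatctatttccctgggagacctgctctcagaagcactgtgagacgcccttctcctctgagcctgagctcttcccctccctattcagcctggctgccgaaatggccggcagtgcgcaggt
Gm33489 other start: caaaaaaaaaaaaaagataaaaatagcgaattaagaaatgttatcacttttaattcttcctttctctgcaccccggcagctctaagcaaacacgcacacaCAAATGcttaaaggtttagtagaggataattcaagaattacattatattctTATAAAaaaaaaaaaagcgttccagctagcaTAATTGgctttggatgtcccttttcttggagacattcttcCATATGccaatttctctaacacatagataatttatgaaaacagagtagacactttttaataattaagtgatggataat
The motifs searched on both strands were TATAAA, the E-box CANNTG, the TAATTG element bound by the oocyte factor NOBOX, and GGGCGG, the GC box. The E-box pattern reads the same on both strands, so a site was counted once. In the chromosome 4 windows TATAAA matched on both strands at overlapping positions, 187 and 185 from the 5′ end of the Gm11757 window. The 3 windows of that family each held TATAAA, the E-box and TAATTG, whereas the X-linked pair held only the E-box. The other start of Gm15496 had 4 GC boxes, 18 CG dinucleotides and 62.7% G and C, against 40.7% at its first start. The other start of Gm33489 held TATAAA, the E-box and TAATTG, and its first start only the E-box. Among all 32851 promoters 13.6% held TATAAA, 72.3% the E-box, 8.0% the NOBOX element TAATTG and 35.7% the GC box. Among the 330 windows of members these shares were 19.1%, 78.2%, 11.2% and 16.7%.

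At the GV stage few members differed between genotypes. Differences were tested with limma over all 65956 clusters in 1 fit of the 4 groups, and a call is a Benjamini-Hochberg adjusted p under 0.05. Of the 2304 members 2 were higher in Patl2-/- GV oocytes, where 0.0303% of all clusters were called higher, and 4 were lower, where 0.091% of all clusters were called lower. After a repeat of quantile normalization 5 were higher and 4 lower. Among other named clusters at the same level limit 12 were higher and 33 lower. The share called was 0.260% of members and 0.495% of other named clusters, or 0.476% when the latter were weighted to the members' levels. The difference between these shares was not tested. The median difference was -0.08 over members, -0.02 over other named clusters and 0.02 over all clusters.

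The lowest of these in Patl2-/- was Gm9103, a pseudogene on the X chromosome. It read 11.24 and 10.66 in WT GV and 8.85, 8.88 and 8.86 in Patl2-/- GV oocytes. At MII it read 10.65 and 10.68 in WT and 9.06, 9.73 and 9.05 in Patl2-/- oocytes. Every Patl2-/- array thus lay below every WT array at both stages. The difference was -2.09 ± 0.23 at GV (SE, a 4.25-fold lower level, adjusted p = 0.0313) and -1.39 ± 0.23 at MII (2.61-fold lower, adjusted p = 0.0437).

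Gm7332, a pseudogene on chromosome 5, followed the same course. Its levels were 9.07 and 8.76 in WT GV, 7.28, 7.25 and 7.17 in Patl2-/- GV, 8.23 and 8.60 in WT MII and 7.20, 7.76 and 7.12 in Patl2-/- MII. The groups did not overlap at either stage. The difference passed the test at GV (-1.69 ± 0.20, adjusted p = 0.0404) and was -1.06 ± 0.20 at MII (adjusted p = 0.0663).

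Gm4825, a pseudogene on chromosome 15, differed at GV. It read 8.88 and 9.0 in WT GV and 7.48, 7.75 and 7.45 in Patl2-/- GV (-1.38 ± 0.15, adjusted p = 0.0272). At MII WT read 7.24 and 7.62 and Patl2-/- read 7.44, 7.70 and 7.70, and these groups overlapped. Patl2-/- GV oocytes were at the level that WT oocytes had at MII: the WT level fell between the stages (-1.51, adjusted p = 0.00108), while the Patl2-/- difference between stages was 0.06 (adjusted p = 0.857). The genotype difference changed by 1.56 between the stages, the lowest adjusted p of that test among members (0.335), and did not pass. The pseudogene Gm14406 on chromosome 2 was 8.59 and 8.69 in WT GV and 7.76 to 7.81 in the 3 Patl2-/- GV arrays (-0.86 ± 0.07, adjusted p = 0.0126), and it was also called lower at MII (-0.41, adjusted p = 0.0413).

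The long non-coding RNA Gm15496, the gene with 2 annotated starts shown above, was higher in Patl2-/- oocytes at both stages. It read 10.54 and 10.65 in WT GV, 11.30, 11.51 and 11.32 in Patl2-/- GV, 11.40 and 11.25 in WT MII and 12.19, 12.26 and 12.22 in Patl2-/- MII. The groups did not overlap at either stage, and the difference was 0.78 ± 0.09 at GV (adjusted p = 0.0339) and 0.90 ± 0.09 at MII (adjusted p = 0.0118). Its locus overlaps Slc7a14. The pseudogene Gm12844 read 10.66 and 10.61 in WT GV and 11.34, 11.30 and 11.25 in Patl2-/- GV (0.66 ± 0.08, adjusted p = 0.0344), with 0.42 at MII (adjusted p = 0.0596). The members next in order of adjusted p, the long non-coding RNA Gm17751 (0.84, adjusted p = 0.0584) and the pseudogene Gm8532 (1.30, adjusted p = 0.0631), did not pass. Gm15496 lost its GV call when any 1 Patl2-/- array was left out, although its GV difference stayed between 0.72 and 0.83 in all leave-outs. Gm9103, Gm7332 and Gm12844 lost their GV calls without each Patl2-/- GV array in turn, and Gm4825 without replicate 1 or replicate 3. With single arrays left out the number of GV calls lay between 0 and 4, and it was 0 without WT GV replicate 2 and 0 without Patl2-/- GV replicate 1, and Gm14406 lost its call without either of those arrays but kept it with each of the others left out.

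**Figure D1:**
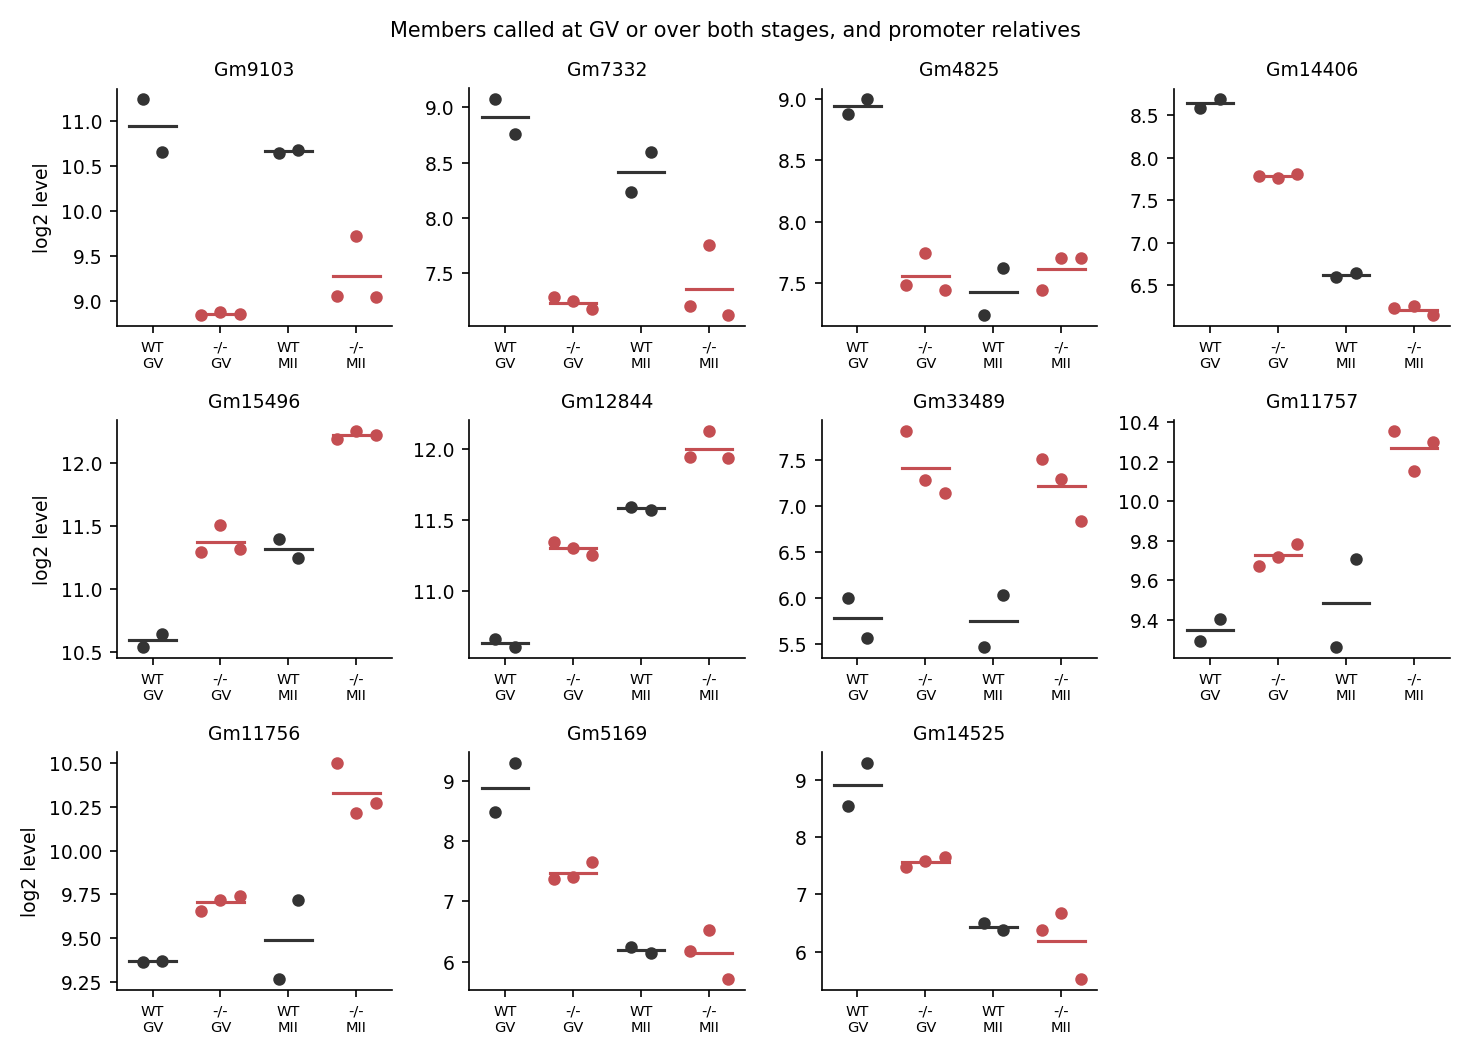
Log2 level (vertical axis) of members called at GV or over both stages and of members of the 2 promoter families, 1 point per array in the 4 groups, with a line at each group mean. Gm9103 and Gm7332 lie lower in Patl2-/- at both stages, Gm15496 and Gm33489 lie higher, Gm4825 differs at GV, Gm11757 and Gm11756 are higher in Patl2-/- at MII, and Gm5169 and Gm14525 are lower in Patl2-/- GV without passing the test.

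The X-linked family, chosen after its values were seen, was lower in every Patl2-/- GV array without passing the test. At GV the genotypes did not overlap, in either direction, in 31.2% of members and 21% of all clusters. The 6 genes of the family (Gm5935, Gm5169, Gm1993, Gm5168, Gm14525 and Gm6121) differed by -1.27 to -1.53 at GV, with adjusted p from 0.127 to 0.209. They have near-identical promoter windows and similar levels across the arrays, so they may not be separate measurements. Gm5169 read 8.48 and 9.29 in WT GV and 7.37, 7.40 and 7.65 in Patl2-/- GV. At MII WT read 6.24 and 6.14 and Patl2-/- read 6.17, 6.53 and 5.71, so that the groups overlapped close to background. A further set of X-linked pseudogenes with identical values (Gm2288, Gm3657, Gm7386, Gm7408, Gm7415 and Gm7438, 1 measurement) gave -1.47 at GV (adjusted p = 0.147).

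At MII more members were called. Of the 2304 members 31 were higher in Patl2-/- MII oocytes, where 0.367% of all clusters were called higher, and 44 were lower, where 0.462% of all clusters were called lower. That was 3.26% of members and 3.37% of other named clusters (143 higher and 163 lower), or 3.32% after weighting by level. The calls fell at different levels. In the lowest range, from 6 to under 8, 0 of 1060 members were called higher and 25 lower, whereas other named clusters split 46 to 45. At 10 and above 24 of 764 members were higher and 10 lower, against 59 and 67 of 2892 other named clusters. The members with a group mean below 6, which entered through the groups where they were high, numbered 308 and gave 0 higher and 9 lower calls. By type, pseudogenes had 26 higher and 27 lower calls, protein-coding genes 4 and 1, long non-coding RNAs 1 and 0, and small RNAs 0 and 16.

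**Figure D2:**
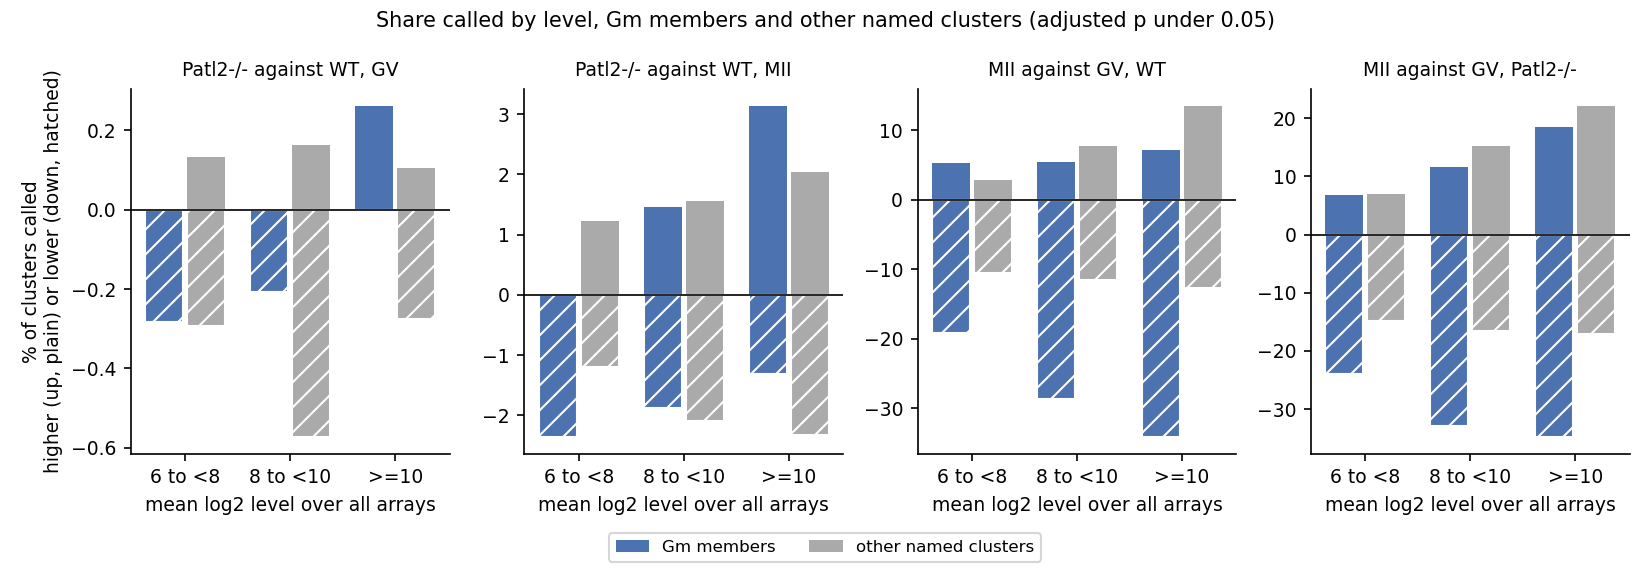
Percent of clusters called higher (upward, plain) and lower (downward, hatched) at adjusted p under 0.05, for Gm members (blue) and other named clusters (grey) in 3 ranges of mean log2 level, with 1 panel per comparison and separate vertical scales. At MII the lowest range of members holds 0 higher and 25 lower calls, and on the deposited scale members were called lower more often than other named clusters between GV and MII in every range.

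Among the members most raised in Patl2-/- MII oocytes were pseudogenes whose levels followed those of alpha-tubulin genes or of Dppa5a across the arrays. Gm6682 on chromosome 12 read 12.08 and 11.88 in WT GV, 12.80, 12.63 and 12.35 in Patl2-/- GV, 9.29 and 9.79 in WT MII and 11.90, 11.89 and 11.83 in Patl2-/- MII. It fell between the stages in both genotypes (WT -2.44, Patl2-/- -0.72), and the MII difference was 2.33 ± 0.17 (5.03-fold, adjusted p = 0.00755). Its level followed that of Tuba1c (r = 0.996) and Tuba1a (r = 0.992) over the 10 arrays, which share the stage and genotype groups. Tuba1a and Tuba1c encode alpha-tubulins, the building blocks of spindle microtubules. Tuba1a itself was 1.82 higher at MII (adjusted p = 0.008) and the 2 Tuba1c clusters 2.09 and 1.34 higher (adjusted p = 0.011 and 0.018).

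Gm3756 on chromosome 9 was of the same kind (r = 0.995 with Tuba1c). Its levels were 14.46 and 13.85 in WT GV and 14.62, 14.69 and 14.42 in Patl2-/- GV, and at MII 10.79 and 11.96 in WT and 13.84, 13.70 and 13.90 in Patl2-/- oocytes. All 3 Patl2-/- MII arrays lay above both WT MII arrays, by 2.44 ± 0.32 on average (adjusted p = 0.025). Gm14150 on chromosome 2 (1.73 ± 0.15, adjusted p = 0.0105) and Gm17383 on chromosome 18 (1.62 ± 0.22, adjusted p = 0.0281) were likewise higher.

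A further 4 called members followed Dppa5a, the gene of an RNA-binding protein of pluripotent cells and oocytes. Gm6798 on the X chromosome (r = 0.994) read 13.95 and 13.76 in WT GV, 14.34, 14.26 and 14.26 in Patl2-/- GV, 9.38 and 9.53 in WT MII and 11.55, 11.17 and 11.80 in Patl2-/- MII. It fell in both genotypes (-4.40 in WT and -2.78 in Patl2-/- oocytes), and remained 2.05 ± 0.17 higher in Patl2-/- MII (4.14-fold, adjusted p = 0.00953). Gm5229 (1.88, adjusted p = 0.0343), Gm5250 (1.82, adjusted p = 0.025) and Gm6083 (1.24, adjusted p = 0.0133) did the same, with r of 0.991, 0.993 and 0.990. Dppa5a itself read 12.78 and 12.95 in WT MII and 14.94, 14.63 and 15.23 in Patl2-/- MII (2.07, adjusted p = 0.011). The probes of these pseudogenes and of Dppa5a may read the same RNA, which was not tested.

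**Figure D3:**
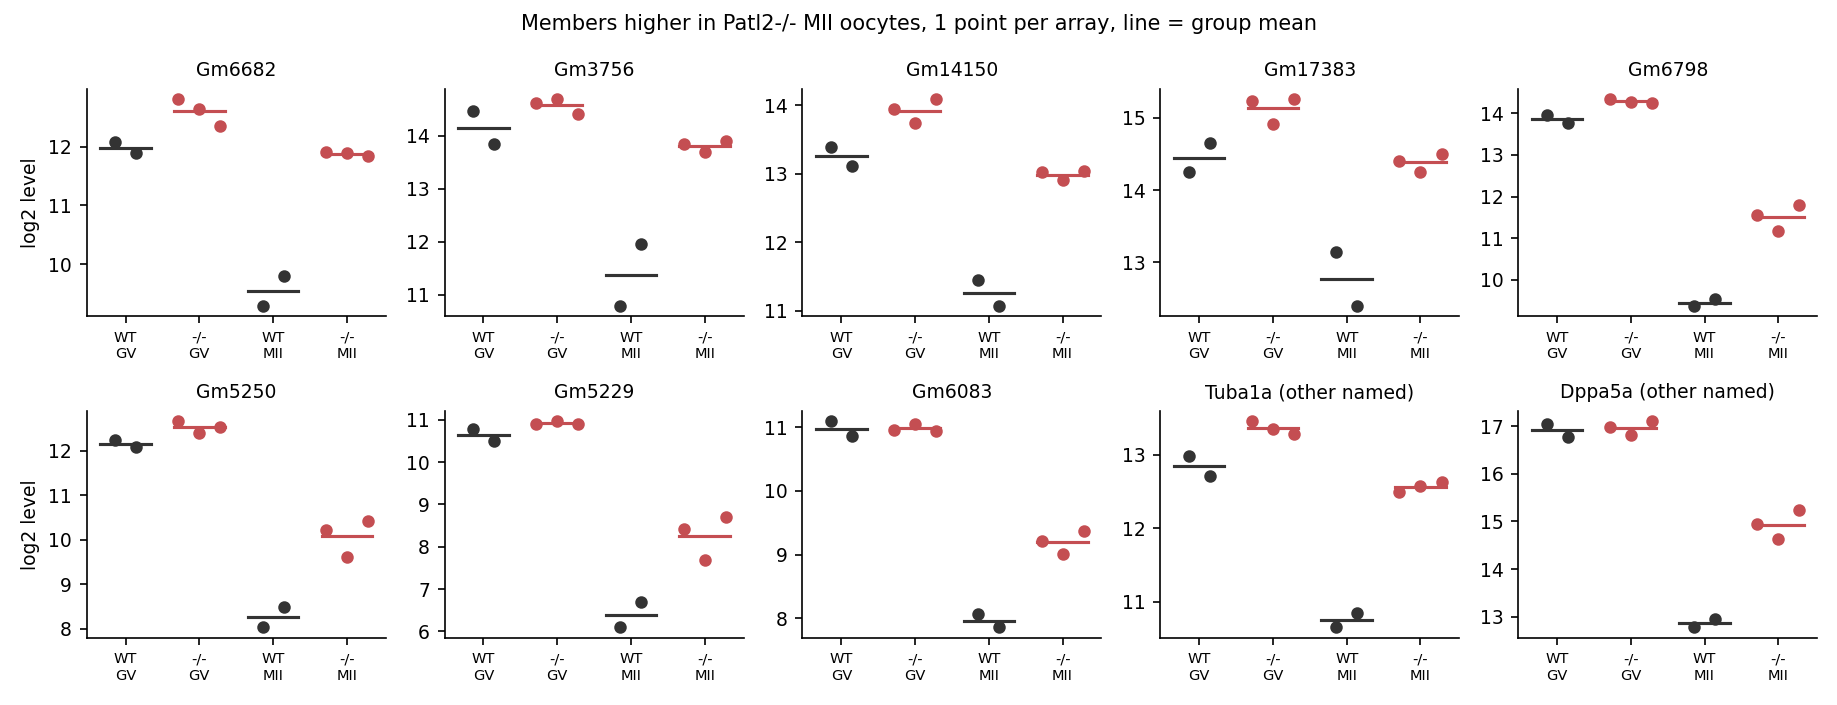
Log2 level (vertical axis) of 8 members higher in Patl2-/- MII oocytes and of the named genes Tuba1a and Dppa5a, 1 point per array, with a line at each group mean. In every panel the WT MII arrays lie below the Patl2-/- MII arrays, and the GV groups lie closer together.

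Gm13910 (Hadhb-ps), a pseudogene copy of a gene of fatty acid oxidation, was 1.83 ± 0.30 higher at MII (adjusted p = 0.0441). Its parent Hadhb correlated with it at r = 0.932. Of 11 members named as copies of Ppia, the gene of the abundant prolyl isomerase cyclophilin A, 4 were called higher at MII, where 0.367% of all clusters were, and the median of the 11 was 0.97. Gm13493 (1.10 ± 0.16, adjusted p = 0.0324), Gm12728 (1.03, adjusted p = 0.0474) and Gm5558 (1.00, adjusted p = 0.0251) were among them. All 11 copies had a difference above 0 at MII (0.54 to 1.10). Their probes may read the same RNA, which was not tested, so the 11 may not be separate measurements. Gm5558 read 10.87 and 11.36 in WT MII and 12.15, 12.07 and 12.14 in Patl2-/- MII, while at GV both genotypes lay between 12.17 and 12.52. In WT maturation 8 of the 11 copies were called lower, where 5.19% of all clusters were (median of the 11 -0.93). In Patl2-/- maturation all 11 were below 0 (median -0.33, 6 at an unadjusted p under 0.05 in limma) and 0 were called. The limma test of the change in genotype difference called 0 of the 11, so the falls are not shown to differ between genotypes.

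The chromosome 4 family with the near-identical promoters, chosen after its values were seen, read higher in Patl2-/- oocytes at MII. All 3 Patl2-/- MII arrays lay above both WT MII arrays for each of its 3 genes. The same held for the neighbouring members Gm11236 and Gm11238, for which no window is shown. At MII the genotypes did not overlap, in either direction, in 42.6% of members and 28% of all clusters. Gm11756 read 9.27 and 9.72 in WT MII and 10.50, 10.21 and 10.27 in Patl2-/- MII (0.84 ± 0.14, adjusted p = 0.043). Gm11757 (0.78, adjusted p = 0.044) and Gm11238 (0.71, adjusted p = 0.045) were also called, whereas Gm11487 (0.69, adjusted p = 0.051) and Gm11236 (0.70, adjusted p = 0.08) did not pass. Gm11756 and Gm11757, whose windows are nearly the same, had nearly the same levels and may not be separate measurements.

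The members most lowered at MII were small RNAs. Gm25989, a snoRNA gene inside Qtrt2 on chromosome 16, read 6.62 and 6.10 in WT GV, 6.31, 6.21 and 6.98 in Patl2-/- GV, 10.29 and 8.95 in WT MII and 6.50, 7.04 and 5.94 in Patl2-/- MII. Its WT MII arrays stood above the other 8 arrays, and the difference at MII was -3.13 ± 0.46 (adjusted p = 0.0315). The Patl2-/- MII arrays lay close to the 90th percentile of their negative controls (6.25 to 6.46), 1 of the 3 below it, so no fold is given. The snRNA Gm25939 on chromosome 1 (-2.77 ± 0.47, adjusted p = 0.0475) and the snRNAs Gm23444 and Gm23472, which shared 1 set of values (-2.56, adjusted p = 0.0446), behaved alike. Gm25939 followed Rnu2-10, a gene of the spliceosomal U2 RNA, at r = 0.986, and the 2 clusters of Rnu2-10 themselves differed by -2.19 (adjusted p = 0.038) and by -2.09 (adjusted p = 0.064). In all 16 called small RNAs (7 snRNAs, 8 snoRNAs and 1 miscellaneous RNA) both WT MII arrays lay above all other arrays. Selection by the MII difference favours this pattern, and its share over all clusters was not counted. Some of the 16 had a group mean below 6 and so entered the members through the WT MII arrays. Their median was 9.24 and 8.37 in the WT MII arrays, 6.24 and 6.28 in WT GV, 6.03 to 6.80 in Patl2-/- GV and 6.40 to 6.51 in the Patl2-/- MII arrays.

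**Figure D4:**
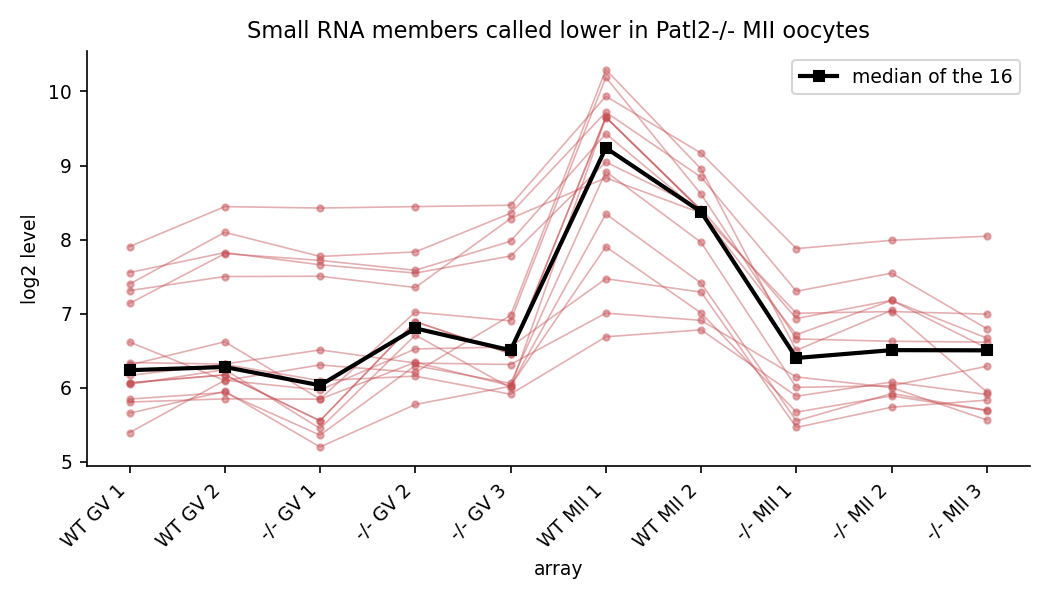
Log2 level (vertical axis) of the 16 small RNA members called lower in Patl2-/- MII oocytes on each of the 10 arrays (horizontal axis), 1 thin line per member, with squares for the median. The medians of the WT MII arrays are 9.24 and 8.37, and those of the other 8 arrays lie between 6.03 and 6.80.

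The WT MII arrays were not alike for these RNAs. In 15 of 16 the level was higher in WT MII replicate 1 than in replicate 2, with a median gap of 0.91, and without replicate 1 none of the 16 was called. Without replicate 2, 14 were called, and without each Patl2-/- MII array in turn 1 was. Over all 243 small RNA members, 115 were higher in replicate 1 than in replicate 2. The array protocol started from 250 pg of total RNA. The change in the genotype difference between the stages had a median of -2.30 in the 16. Its unadjusted limma p was under 0.05 in each, and the lowest adjusted p was 0.434. The 16 were selected by the MII difference that enters this change, so these values do not test an effect of stage. Without that selection the unadjusted p was under 0.05 in 325 of 2304 members and 3952 of 65956 clusters.

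Other lowered members at MII included pseudogenes. Gm13050 (Eef2-ps2), a copy of the gene of translation elongation factor 2, read 8.69 and 8.46 in WT MII and 7.27, 7.18 and 6.68 in Patl2-/- MII (-1.53 ± 0.21, adjusted p = 0.0269). Eef2 itself differed by -1.30 with an adjusted p of 0.056. Gm5946 on the X chromosome read 13.71 and 13.45 in WT MII and 12.08, 12.59 and 12.34 in Patl2-/- MII (-1.25 ± 0.21, adjusted p = 0.0441).

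Single arrays decided many of the MII calls. Of WT MII, leaving out replicate 1 took the 75 calls to 3 and leaving out replicate 2 to 36. The counts were 38, 14 and 6 when Patl2-/- MII replicates 1, 2 and 3 were left out, 39 and 22 when GV replicates 1 and 3 of Patl2-/- were, and 47 when either WT GV array was. Of the named members above that were raised at MII, Gm6682 and Gm14150 kept their call with each array left out, and Gm6798 lost it only without WT MII replicate 1 (1.90, adjusted p = 0.0721).

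The genotype differences were next averaged over both stages, which used all 10 arrays. Of the members 53 were higher in Patl2-/- oocytes, where 0.776% of all clusters were called higher, and 66 were lower, where 1.11% of all clusters were called lower. Members were called in 5.16% of cases and other named clusters in 8.23% (8.07% after weighting by level), and the difference was not tested. All 53 higher members had a positive difference at each stage, and in 45 the groups did not overlap at either stage. Of the 66 lower members 65 were negative at each stage and 55 did not overlap. Selection on the average of the same differences favours both, so these counts do not test agreement between the stages. Without that selection 12.5% of members and 6.25% of all clusters lay on the same side at both stages without overlap. The split between higher and lower depended on scaling: a repeat of quantile normalization gave 81 higher and 58 lower members (58.3% higher in place of 44.5%). With single arrays left out the 119 calls became between 34, without WT GV replicate 2, and 135, without Patl2-/- GV replicate 2.

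Gm33489, the long non-coding RNA on chromosome 13 whose windows are shown above, was near background in WT and above it in Patl2-/- oocytes. It read 5.99 and 5.56 in WT GV, 7.81, 7.29 and 7.14 in Patl2-/- GV, 5.46 and 6.03 in WT MII and 7.51, 7.29 and 6.84 in Patl2-/- MII. The average difference was 1.55 ± 0.20 (adjusted p = 0.0134). All WT arrays lay below the 90th percentile of their negative controls, so the cluster entered the members through its Patl2-/- arrays and only a bound can be given, at least 2.26-fold higher in Patl2-/- oocytes at GV and at least 1.89-fold higher at MII, with that percentile in place of the WT level. The pseudogene Gm10356 on chromosome 3 read 10.07 and 9.42 against 10.84, 11.16 and 10.73 at GV and 10.30 and 10.36 against 11.75, 11.52 and 11.58 at MII (1.23 ± 0.14, adjusted p = 0.00857). Gm9103 (-1.74, adjusted p = 0.00514) and Gm7332 (-1.37, adjusted p = 0.00697) led the lower members. Further lower members were the long non-coding RNA Gm13990 (-1.08, adjusted p = 0.0294), the pseudogene Gm1826 (-1.18, adjusted p = 0.0285) and Gm8787 (Cfap47), a gene of a cilia and flagella protein (-1.12, adjusted p = 0.0477).

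**Figure D5:**
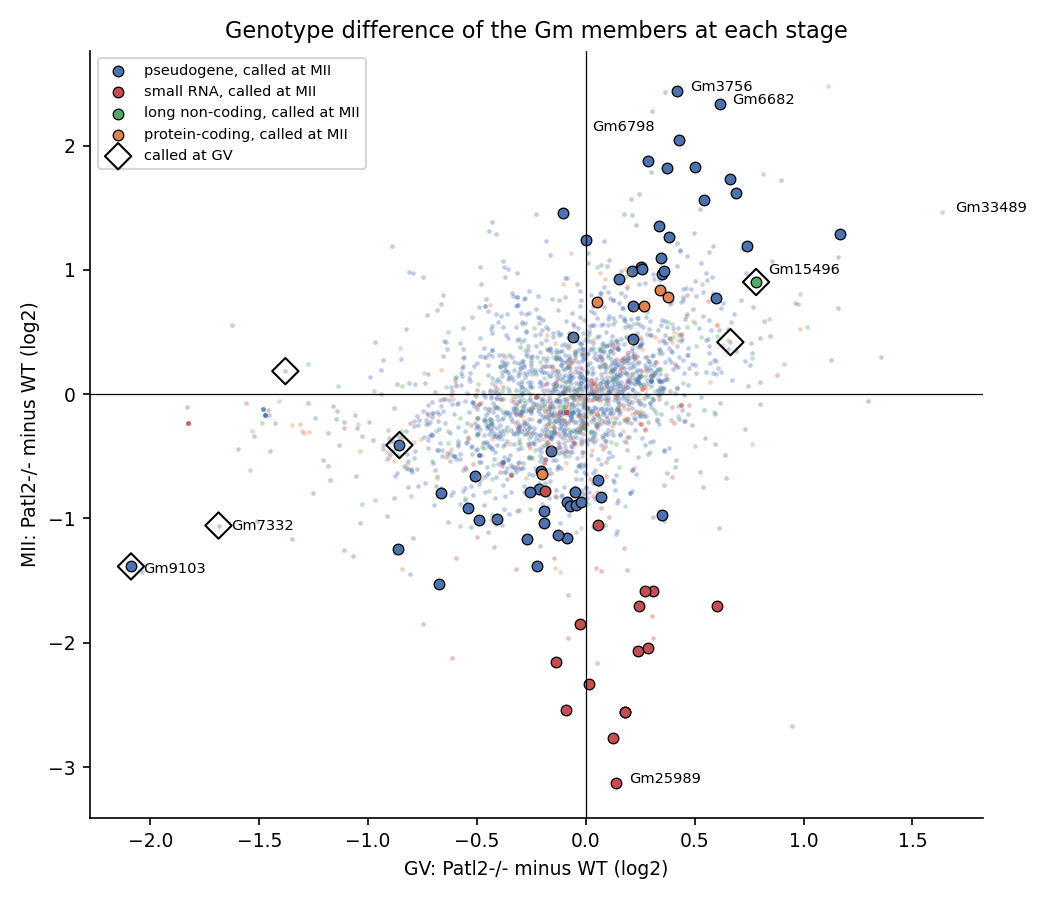
Genotype difference, Patl2-/- minus WT in log2, of each member at GV (horizontal axis) and at MII (vertical axis), 1 point per member cluster coloured by type, outlined where called at MII and with a diamond where called at GV. Of the 31 members called higher at MII 29 also lie above 0 at GV, whereas of the 44 called lower 29 also lie below 0. Of all members 40.6% lie above 0 at GV.

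The MII calls were set beside the same members at GV. Of the 31 higher members 29 were also positive at GV, with a median of 0.35 there and of 1.10 at MII. Of the 44 lower members 29 were also negative at GV, with medians of -0.09 and -1.04. Of all 2304 members 40.6% were positive at GV, so a negative sign there was the more common one. The change in genotype difference between the stages was called for 0 members, where 0% of all clusters were called higher and 0% lower. At an unadjusted p under 0.05 in limma 325 members changed, and the lowest adjusted p was 0.335. An effect called at 1 stage alone is therefore not shown to differ between stages. The Patl2-/- and WT arrays did not overlap in 718 members at GV (31.2%, against 35.7% of other named clusters and 21% of all clusters) and in 981 at MII (42.6%, against 48.4% and 28%). In 289 members the Patl2-/- arrays lay on the same side of WT at both stages without overlap (12.5%, against 19.6% of other named clusters and 6.25% of all clusters), and in 33 they lay on opposite sides (1.43%, against 1.58% and 1.32%).

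Between GV and MII the members changed far more than between genotypes, and most of the calls were falls. In WT 137 members were higher at MII, where 1.96% of all clusters were called higher, and 603 were lower, where 5.19% of all clusters were called lower. In Patl2-/- oocytes 270 were higher, where 3.37% of all clusters were called higher, and 678 were lower, where 7.14% of all clusters were called lower. Other named clusters gave 686 higher and 1044 lower calls in WT and 1274 and 1460 in Patl2-/- oocytes. In WT 32.1% of members were called, against 19.0% of other named clusters (18.9% weighted by level), and in Patl2-/- oocytes 41.1% against 30.1% (29.7% weighted). On the deposited scale the gap lay in the falls, for which 26.2% of members and 11.5% of other named clusters were called in WT. It was present in each range of level: 19.2%, 28.8% and 34.2% of members from the lowest range up, against 10.6%, 11.5% and 12.7%. None of these gaps was tested.

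The direction of the maturation calls depended on scaling. With a repeat of quantile normalization 504 members were higher and 522 lower in WT, a share of 49.1% higher in place of 18.5%, and 565 and 564 in Patl2-/- oocytes (50.04% in place of 28.5%). The members' median moved from -0.14 to 0.19 in WT and from -0.21 to 0.10 in Patl2-/- oocytes. Other named clusters then gave 2999 higher and 724 lower calls in WT and 3775 and 897 in Patl2-/- oocytes. The share called in either direction was thus 44.5% of members against 41.0% of other named clusters in WT, and in Patl2-/- oocytes it turned, with 49.0% of members against 51.4% of other named clusters. The gap also lay in the rises under that scaling, with 21.9% of members against 33.0% higher in WT and 24.5% against 41.5% in Patl2-/- oocytes. The gap in medians and that in falls were kept: the member median minus the other median was -0.17 in WT and -0.23 in Patl2-/- oocytes under each of 4 scalings, and the share of members called lower was 2.21 to 2.84 times that of other named clusters in WT and 1.81 to 2.48 times in Patl2-/- oocytes.

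Most of the falls were shared by the genotypes, which have no array in common here. Of the members lower at MII 546 were called in both, 90.5% of the WT calls and 80.5% of the Patl2-/- calls. Of the members higher at MII 83 were called in both, 60.6% of the WT calls and 30.7% of the Patl2-/- calls. By type, pseudogenes made up most of the lower calls, 535 of 1717 in WT and 576 in Patl2-/- oocytes. Of the 195 long non-coding RNAs 33 were lower in WT and 41 in Patl2-/- oocytes, and of the 149 protein-coding genes 32 and 36. Of the 243 small RNAs 22 were called higher and 3 lower in WT, although their median difference was -0.33 and 35.4% were above 0, and in Patl2-/- oocytes 2 were called higher and 25 lower (median -0.45).

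Of the members called lower, 216 in WT and 174 in Patl2-/- oocytes fell at least 8-fold. The deepest fall was that of Gm7079, an X-linked pseudogene that followed Rps29, the gene of a small ribosomal subunit protein, at r = 0.999. It read 15.53 and 15.97 in WT GV and 7.21 and 7.06 in WT MII, and 15.51, 15.43 and 15.62 in Patl2-/- GV and 7.17, 9.09 and 9.49 in Patl2-/- MII. The difference was -8.61 ± 0.64 in WT (392-fold lower, adjusted p = 0.000172) and -6.94 ± 0.52 in Patl2-/- oocytes, where replicate 1 lay with WT and the other two arrays lay higher. The differences in WT and Patl2-/- maturation were -7.95 and -6.59 for Gm10059, -7.67 and -6.22 for Gm7618, and -7.04 and -6.20 for Gm14853. None of these passed the genotype test at MII, where Gm7079 had a difference of 1.45 with an adjusted p of 0.364.

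Of the 8 members that rose most in Patl2-/- maturation, 1 (Gm25443) was also among the 8 that rose most in WT. Gm5423 (Tmem229b-ps) rose by 2.65 ± 0.46 in Patl2-/- oocytes (adjusted p = 0.00881) and differed by 1.38 in WT (adjusted p = 0.249). Gm12260 (H3f4), a histone H3 gene, read 6.89 and 7.72 in WT GV, 7.57, 9.79 and 7.90 in Patl2-/- GV, 7.80 and 8.25 in WT MII and 10.47, 10.64 and 10.41 in Patl2-/- MII. It rose by 2.09 in Patl2-/- maturation (adjusted p = 0.0432), and the Patl2-/- MII arrays lay 2.48 above WT without passing the genotype test (adjusted p = 0.123). The pseudogenes Gm13991 (2.09) and Gm9386 (1.89) also rose in Patl2-/- oocytes, and both rose in WT, by 1.08 and by 1.84. In WT the guide RNA Gm25443 rose most, from 6.37 and 6.13 to 9.88 and 9.36 (3.37 ± 0.52, adjusted p = 0.00672), and it rose by 1.83 in Patl2-/- oocytes (adjusted p = 0.0292).

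Members whose RefSeq name gives a parent gene were grouped by it, 109 in all. All 11 ribosomal protein pseudogenes were called lower at MII in WT (median -3.63) and in Patl2-/- oocytes (median -3.38), where 5.19% and 7.14% of all clusters were, and none was called between genotypes at either stage. Gm10260 (Rps18-ps6), for example, read 12.98 and 13.37 in WT GV and 7.46 and 8.03 in WT MII. Copies of Mif, the gene of macrophage migration inhibitory factor, fell as well: the difference of Gm10169 (Mif-ps) was -5.32 in WT and -4.09 in Patl2-/- oocytes. By contrast none of the 8 copies of Obox3 and none of the 19 copies of Obox4, relatives of oocyte homeobox genes, was called in any comparison. Gm5889 (Obox3-ps6) stayed between 14.12 and 14.56 on all 10 arrays. Of the 98 copies of genes other than ribosomal protein genes, the Ppia copies included, 5 were higher and 1 was lower in Patl2-/- MII oocytes. Of all clusters 0.367% and 0.462% were called. Of the 5 higher copies 4 were Ppia copies, which may not be separate measurements.

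Parents could be set beside 59 of these members, over 45 parent genes. The median correlation of copy and parent over the 10 arrays was 0.932, and 36 pairs had r above 0.9. In 6 pairs the parent was the most similar of 8825 named clusters, and in 23 it was among the 10 most similar. The signs of the genotype difference were the same in 49 pairs at GV and in 54 at MII. Copy and parent were both called in WT maturation in 19 pairs, with the same sign in all 19. The lowest correlation was -0.239, of Gm18355 (Obox3-ps7) with Obox3. As copy and parent share sequence, these correlations do not separate RNA of the copy from RNA of the parent.

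The clusters with the highest means differed little between genotypes. Gm13363, with 2 clusters at a locus that overlaps Etl4, had means near the top of the range of all members (up to 17.3) and lay between 17.08 and 17.54 on all arrays. Gm5514 (Ldhb-ps), a copy of a lactate dehydrogenase gene, Gm4202 and Gm3788 were also among the 10 highest. Between the stages Gm5514 was called lower at MII in WT (-0.50, adjusted p = 0.0323) and did not pass in Patl2-/- oocytes (-0.26, adjusted p = 0.131). None of the 10 was called between genotypes at either stage, with differences that ranged from -0.24 to 0.34 in the GV comparison and from -0.38 to 0.31 in that of MII. Levels of different clusters rest on different probes and do not rank the genes by RNA abundance.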

How the data were processed

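Mouse Clariom D arrays (Affymetrix) were hybridised with RNA of 10 pools of WT and Patl2-/- oocytes, from 250 pg of total RNA each. The authors summarised and normalized the probes with the robust multi-array average in Affymetrix Expression Console (version not given in the sources used here) and deposited log2 levels per transcript cluster. The genome build of the array annotation is not given in the sources used here. The authors' own comparisons used analysis of variance with p under 0.05 and a 2-fold change, and none of their results was read. Groups came from the sample labels, and all columns matched a sample. The members, the rule for them and all gene lists were chosen with earlier results of these data known.

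Deposited log2 levels were used without further scaling. After 6732 control probe sets were set aside, 65956 clusters were fitted in limma 3.58.1 (R 4.3.3) with 1 mean per group, and contrasts were moderated with 6 residual and 2.02 prior degrees of freedom. P-values were adjusted by the Benjamini-Hochberg method over all clusters, and members were read from that table. With 2 WT and 3 Patl2-/- arrays per stage the number of arrays limits the precision, and the p-values measure the spread between these pools. Named members were those with the largest difference among the calls of each comparison that did not overlap between groups, the highest means, and members of the listed families, whereas the 2 promoter families were chosen after their values were seen. Likeness was Pearson's r over the 10 arrays, given as a description. RefSeq (GRCm38.p6) gave types, newer names, overlaps and promoters. Tables and figures were made with python 3.11.15, pandas 2.3.3, numpy 2.4.6 and matplotlib 3.10.9, and the fit was tested on simulated data with known changes. Alternatives were other scalings, other variance models, array weights, other level limits, smaller sets of tested clusters, fewer arrays, the replicate number as a block and analysis of variance. Whether same-numbered arrays deviate together was checked, and the correlations of their deviations ran from -0.13 to 0.25. Differently numbered arrays were not compared, so the check cannot decide whether the numbers pair the arrays.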

Additional observations from a re-analysis of the deposited data

Results flagged for a closer look

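In 33 of 2304 members (1.43%, against 1.58% of other named clusters and 1.32% of all clusters) the Patl2-/- arrays all lay above the WT arrays at one stage and all below them at the other, and 3 of those are among the members named by the rules used here. The genotype difference of the pseudogene Gm12397 changed by 0.84 from GV (-0.47) to MII (0.37), with an adjusted p of 0.538 for the change in limma. That of the X-linked pseudogene Gm15026 changed by -1.32, from 0.35 at GV to -0.98 at MII, where it was called lower (adjusted p = 0.045), and the change had an adjusted p of 0.458. That of the pseudogene Gm8258 changed by -1.15, from 0.52 to -0.63, with an adjusted p of 0.458. None of these changes passed the limma test of the difference between stages.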

How the results depend on the processing

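The main counts of members called were 6 at GV, 75 at MII, 119 over both stages, 740 in WT maturation and 948 in Patl2-/- maturation. With only clusters of a mean of at least 6 tested they were 20, 197 and 341 in the genotype comparisons. With only clusters of a single symbol tested they were 13, 145 and 204. Both fits were rerun on the smaller sets, so the adjustment and the variance estimate changed together, and their parts were not tested. Trend and robust variance estimation gave 3, 36 and 71. Fits on only the arrays of the compared groups gave 0 at GV, 0 at MII and 173 in WT maturation. With members limited to a mean of at least 8 the counts were 3 at GV, 480 in WT and 621 in Patl2-/- maturation. One-way analysis of variance, the test of the methods, called 45 members at GV at an unadjusted p under 0.05 and 2-fold, and after Benjamini-Hochberg 0 at GV, 0 at MII, 0 in WT and 464 in Patl2-/- maturation. The replicate block called 0 at GV, 4 at MII and 16 over both stages. The check of same-numbered arrays cannot decide whether they share a batch, so these lower counts stand as a limit on the genotype calls. With each array left out in turn the counts ran from 0 to 4 at GV, 3 to 82 at MII and 34 to 135 over both stages. The test of the change between stages called 0 members in every setting run. As shares of members, testing only clusters with a mean of at least 6 gave 0.868% at GV, 8.55% at MII, 40.2% in WT and 49.0% in Patl2-/- maturation, and a repeat of quantile normalization gave 4.12% at MII, 44.5% in WT and 49.002% in Patl2-/- maturation. With single arrays left out the shares ran from 0 to 0.174% at GV, 0.130 to 3.56% at MII, 21.8 to 32.4% in WT and 30.5 to 41.1% in Patl2-/- maturation. After a repeat of quantile normalization 5 members were higher and 4 lower at GV (55.6% higher in place of 33.3%). The causes of the shifts between settings were not tested. With single arrays left out the GV difference of Patl2 lay between -3.99 and -3.21 and the MII difference between -2.37 and -2.13, and its MII call was lost without each MII array and its GV call without Patl2-/- GV replicate 1. The sign turned in 5 uncalled named members with single arrays left out: at GV Gm5612 ran from -0.289 to 0.0996 and Gm6097 (Mif-ps3) from -1.23 to 0.106, and at MII Gm5889 (Obox3-ps6) from -0.313 to 0.0304, Gm6509 (Pramel44) from -0.117 to 0.0315 and Gm8053 (Obox3-ps5) from -0.352 to 0.0416. Of 77 called results followed for named members, 41 kept call and direction under all changes of normalization, variance model and block, 34 kept the call with each array left out, and 0 reversed. Counting clusters with identical values once, and requiring every group mean to be at or above 6, were chosen after seeing the data, as were the leave-outs for the small RNAs and for the promoter families. Levels near the negative controls limit what can be seen in the 308 members with a group mean below 6.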
